A study of Mus musculus with 12 samples.

Results

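Macrophages recovered from inside tumour spheres were compared with the macrophages that remained outside spheres after 24 h of culture. The comparison uses 6 of the 12 arrays of the series, 3 from each compartment, and every gene that the arrays name. Of 17097 genes with a probe set of their own, 12488 were bright enough to test. The spheres were formed on agar by TT9423, a neuroblastoma cell line, and macrophages grown from bone marrow were then added in equal cell number. C57BL/6 is the labelled strain of all samples. The in-sphere group is labelled as CD11b-positive macrophages from neuroblastoma neurospheres, which the protocol says were freed by enzymes and selected on CD11b columns. The other group is labelled as bone marrow-derived macrophages from the agar culture. Both groups came from the same cultures with tumour cells, no treatment was given, and the animals' age and sex were not stated in the sources used here. Each replicate was a separate experiment that pooled cells of several wells. The sources used here do not say whether the outside cells were digested and selected too. TT9423 cells by themselves were not analysed here. The remaining 6 arrays are labelled as the same compartments at 48 h and entered the fit to estimate the spread.

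Macrophages inside solid tumours meet low oxygen, tumour cells that die, and a matrix that they help to build and to cut. They are known to switch between inflammatory, matrix-remodelling and lipid-handling programmes, each of which has well-studied marker genes. Bone marrow cultures also carry some neutrophils, megakaryocytes, erythroid cells and stromal cells beside the macrophages.

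Values are log2 expression as deposited, a difference is the mean of the in-sphere arrays minus the mean of the outside arrays, and errors of differences are standard errors (SE) of a limma fit with n = 3 against 3. A gene is called when its p-value, adjusted by Benjamini and Hochberg over all 12488 genes, is under 0.05. The main fit did not pair arrays by replicate number. Array values are always listed for replicates 1, 2 and 3 in that order. A value at or under 2.77, the level used for the filter, is not a measured amount, so a difference against such values is a bound at best. In RNA from many cells at once, a smaller number of cells of one type and less RNA per cell cannot be told apart.

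The markers of macrophages were present on all 6 arrays. Adgre1, which encodes the macrophage surface protein F4/80, read 10.50, 10.75 and 10.89 in spheres and 11.23, 11.04 and 11.18 outside. Itgam, which encodes CD11b itself, read 8.22, 9.04 and 8.72 in spheres and 8.51, 8.93 and 8.11 outside, so the selected and the other cells overlapped for the selection marker. The summed level of 10 macrophage markers ran from 13.68 to 14.10 in spheres and from 14.04 to 14.22 outside (exact two-sided permutation p = 0.20). Of these 10 markers 3 were called lower in spheres and 0 higher. The 3' minus 5' value of the beta-actin controls, which rises as RNA is shorter, was 0.350 to 0.604 in spheres and 0.224 to 0.324 outside (exact permutation p = 0.10), while that of GAPDH overlapped (exact permutation p = 0.70). Its part in the differences was not tested. Arrays of one compartment correlated at 0.982 to 0.992 over tested genes, and arrays of different compartments at 0.936 to 0.964. Replicate 1 in spheres stood somewhat apart. It had the lowest array weight of the 24 h arrays, 0.347, and was the highest in-sphere array for 1177 of the 1975 genes called higher, against 4750 of all 12488 tested genes. It was also the lowest in-sphere array for 1068 of the 1694 genes called lower, against 4816 of all tested genes.

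Sex-linked genes also differed between arrays in a way that the group labels do not describe. This pattern was read from the arrays after their values were seen. Xist, the RNA of the inactive X chromosome, read 10.60, 11.05 and 6.64 in spheres and 11.01, 11.00 and 3.89 outside. The Y-linked gene Eif2s3y, an initiation factor subunit, read 6.48, 5.35 and 8.21 in spheres and 3.06, 2.09 and 8.67 outside. Kdm5d, a Y-linked histone demethylase, read 4.34, 3.65 and 5.15 in spheres and 2.28, 2.02 and 5.03 outside. Replicate 3 was therefore high for Eif2s3y and Kdm5d in both compartments, while in replicates 1 and 2 both genes were higher in spheres than outside. Uty, another Y-linked histone demethylase, read 2.93, 3.11 and 3.82 in spheres and 2.92, 2.98 and 4.26 outside. It was also highest in replicate 3 of both compartments, while in replicates 1 and 2 its compartments were close and near the filter level. Another probe set of Uty differed by 1.18, 0.39 and -0.11 in replicates 1, 2 and 3. In replicates 1 and 2 only its in-sphere array of replicate 1 exceeded the filter level, so Uty cannot decide whether the compartments differed there. Eif2s3y at 48 h read 5.50, 5.45 and 8.35 in spheres and 2.29, 2.78 and 8.32 outside, the same arrangement as for Eif2s3y at 24 h. None of the 4 tested sex-linked genes was called over the groups. With the replicate number as a block, Kdm5d was called (1.27 ± 0.43, adjusted p = 0.0454) and Eif2s3y was not (2.07 ± 0.75, adjusted p = 0.0584). The part of this signal in other differences was not tested.

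**Figure D1:**
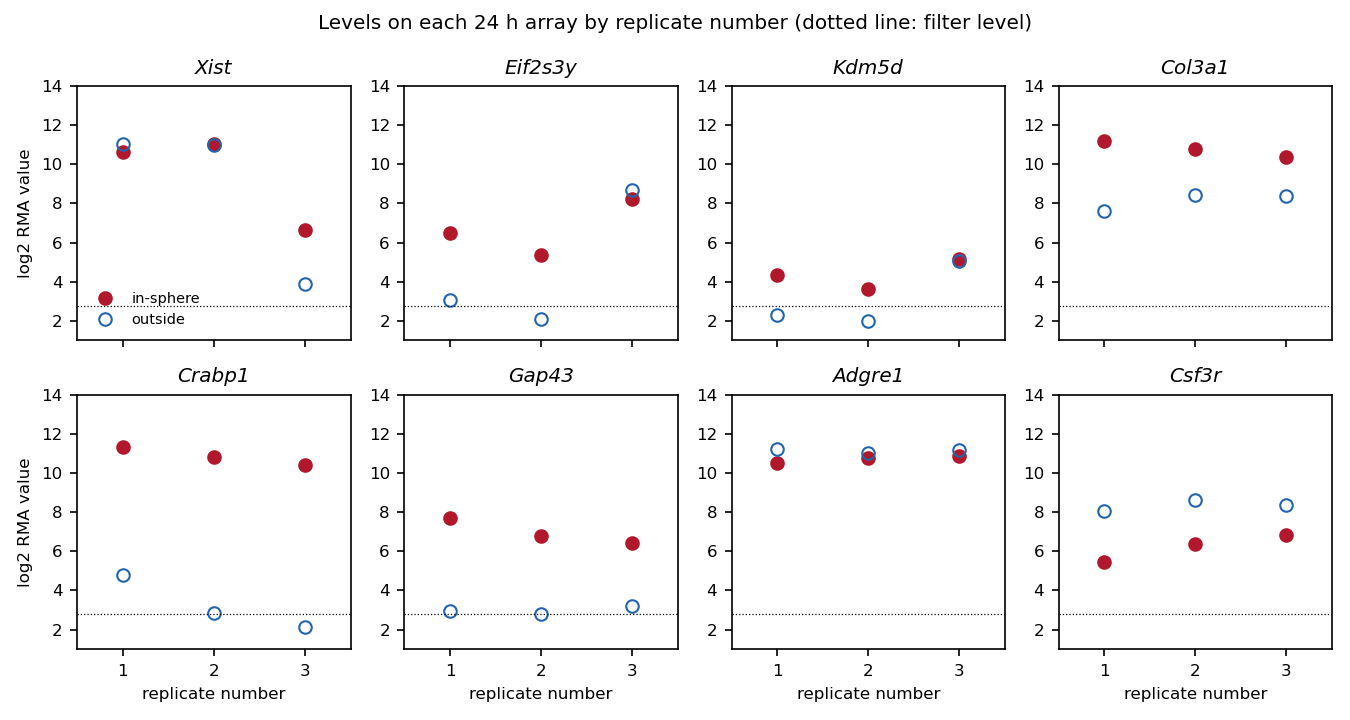
Log2 RMA value (y axis) of 8 genes on each 24 h array by replicate number (x axis), with filled points for in-sphere and open points for outside arrays, and a dotted line at the filter level of 2.77. Eif2s3y and Kdm5d are apart between the compartments in replicates 1 and 2 and close together in replicate 3, whereas Col3a1, Crabp1, Gap43 and Csf3r are apart in all 3.

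The compartments differed widely at 24 h. Of the 12488 tested genes, 29.4% were called, 15.8% being higher in spheres and 13.6% lower, which is 1975 and 1694 genes. Counts of called members in the gene lists below are to be read beside these shares. The lists were chosen with earlier results of these data known, so their counts are description and no test. The median size of a called difference was 0.79 on the log2 scale, against 0.26 over all tested genes, and 163 genes were higher and 105 lower by at least 2. Arrays of the compartments did not overlap for 43.4% of the tested genes and for 3589 of the 3669 called genes. The median difference over all genes was -0.0068, which the scaling of arrays to each other holds near 0. With each array centred on its own median instead, that median was -0.066, and 1758 genes were higher and 2075 lower. Within a group the median standard deviation was 0.18 in spheres and 0.15 outside.

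Calls were fewer among dim genes. With tested genes cut into 4 equal groups by level, 9.93% of the dimmest group were called, against 32.4%, 36.3% and 38.9% in brighter ones. For 110 genes all 3 in-sphere arrays and 0 outside arrays were above the filter level, and 86 of them were called. The reverse held for 64 genes, of which 38 were called. Each of these differences is a bound, and only 30 and 10 of them had a bound of at least 1. Leaving out in-sphere replicate 1 left 1633 genes called higher and 1297 lower.

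**Figure D2:**
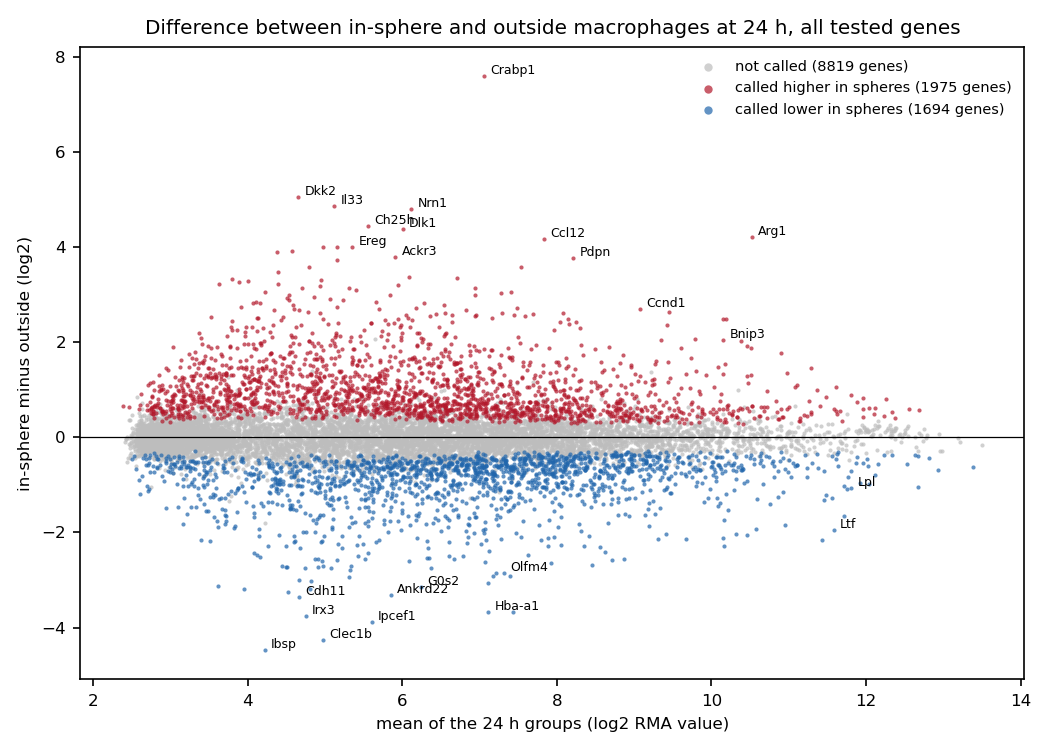
Difference between in-sphere and outside macrophages at 24 h (y axis, log2) against the mean of the groups (x axis, log2 RMA value) for the 12488 tested genes, with 1975 called higher in red, 1694 called lower in blue and the rest in grey. Differences run from -4.48 to 7.60, and Arg1 and Ccl12 are far to the right of most other large differences because they are bright.

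The genes with the largest excess in spheres ranged from genes that were near the filter level outside to genes that the outside cells also expressed strongly. The 20 largest in each direction were taken among called genes whose groups did not overlap, so that gap was fixed by the choice. Crabp1, a retinoic acid-binding protein, read 11.34, 10.82 and 10.41 in spheres against 4.77, 2.85 and 2.14 outside. This made its outside replicate 1 the only outside array with a clear signal. Dkk2, a secreted Wnt antagonist, read 7.68, 7.24 and 6.63 in spheres and stayed under the filter level on all 3 outside arrays. Nrn1, neuritin, read 9.26, 8.28 and 8.02 against 3.80, 3.63 and 3.70, with an adjusted p of 1.01e-06. Arg1, which degrades arginine, was already bright outside in replicate 1. It read 12.94, 12.43 and 12.51 in spheres and 10.25, 7.83 and 7.15 outside, so the difference of 4.22 ± 0.93 varied with the outside array more than with the in-sphere array.

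Further genes of the 20 largest were Ereg, Ackr3 and Pdpn. Ereg encodes epiregulin, a ligand of the EGF receptor, and read 7.53, 7.47 and 7.05 in spheres against 3.63, 2.96 and 3.49 outside. Its difference of 3.99 ± 0.24 had an adjusted p of 1.22e-06. Ackr3, an atypical receptor that binds and removes the chemokine CXCL12, read 8.13, 7.63 and 7.67 against 3.94, 3.93 and 4.17 (3.79 ± 0.23). Pdpn encodes podoplanin, a membrane mucin that is the ligand of the lectin receptor CLEC-2. It read 10.29, 9.67 and 10.34 in spheres and 7.55, 5.29 and 6.16 outside (3.76 ± 0.44, adjusted p = 7.62e-05), and both groups were far from background. The gene for CLEC-2, Clec1b, went the other way, from 6.46, 7.58 and 7.28 outside to 2.77, 2.95 and 2.83 in spheres.

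Several genes of this set were highest in in-sphere replicate 1. Gap43, a growth cone protein, read 7.70, 6.77 and 6.43 in spheres and 2.92, 2.80 and 3.20 outside. Fbn2, a fibrillin of elastic microfibrils, read 7.24, 6.42 and 5.93 in spheres, and none of its outside arrays exceeded the filter level, which leaves a bound of 3.75. Osr1, a transcription factor of mesenchyme, read 7.29, 5.92 and 5.80 in spheres and was under that level outside, with a bound of 3.56. The groups did not overlap in any of the 3, which the choice of these genes required. Over the 163 genes called higher by at least 2, replicate 1 was the highest in 122, which is 74.8%.

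The interferon-inducible gene Ifi202b read 7.45, 7.04 and 6.98 in spheres and 3.57, 3.14 and 2.74 outside (adjusted p = 9.69e-07). C57BL/6 mice are known to carry a deletion that disrupts this gene. The cell-cycle inhibitor locus Cdkn2a, which encodes p16 and p19Arf, read 7.24, 7.54 and 6.28 in spheres and 3.41, 3.10 and 3.34 outside (3.73 ± 0.38). Ch25h was among the 20 largest too, at rank 5. Others of them were Ankrd1 (3.58 ± 0.27), a mechanical-stress gene, and Tcim (3.58 ± 0.34). The microfilament-associated Gas2 (3.47 ± 0.20) and Myh10 (3.36 ± 0.23), which encodes non-muscle myosin IIB, were also in the set. The groups of these genes did not overlap either, which the choice of genes required.

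**Figure D3:**
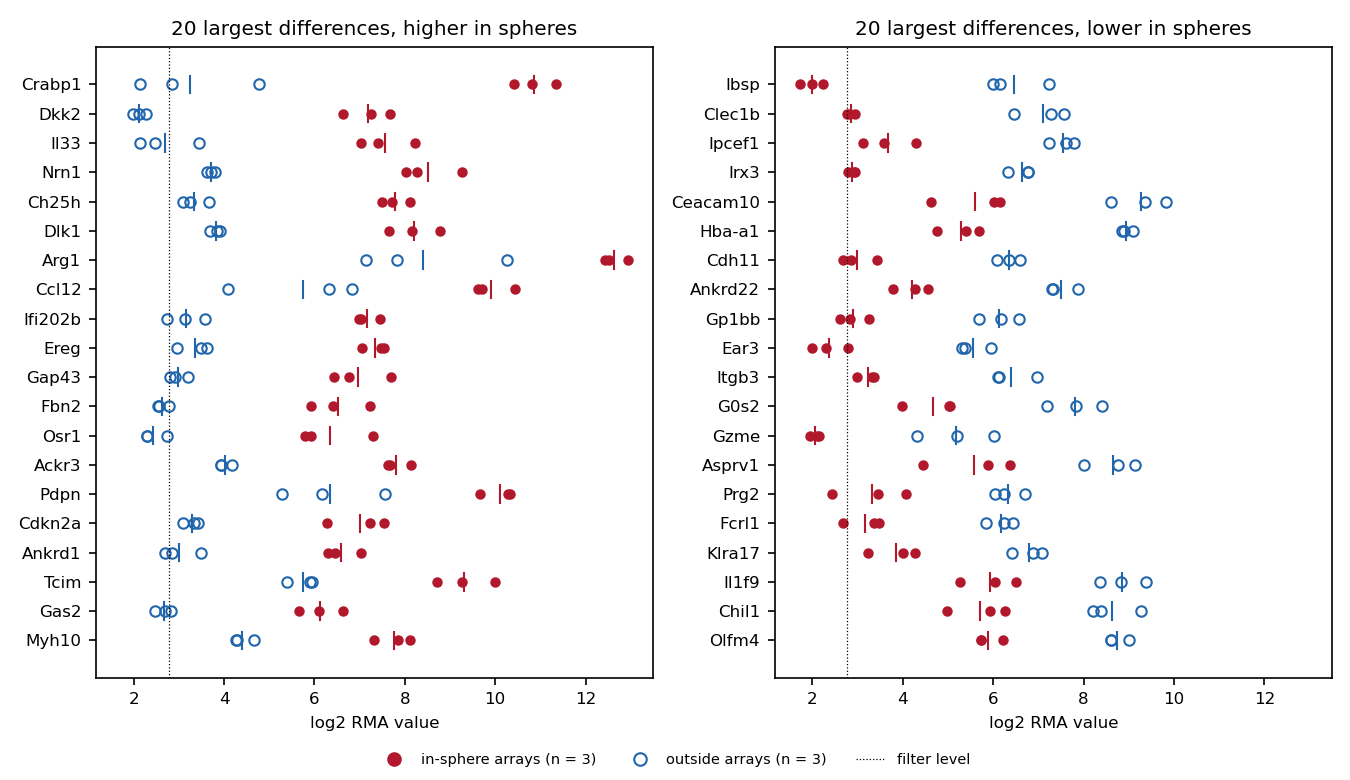
Log2 RMA value (x axis) of the 20 genes with the largest difference in each direction (left higher, right lower in spheres), with filled points for the 3 in-sphere arrays, open points for the 3 outside arrays, short bars for the means and a dotted line at the filter level. Genes were chosen to have no overlap between the groups, and for Dkk2, Fbn2, Osr1, Ibsp and Gzme a whole group lies at or under the filter level.

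The genes with the largest deficit in spheres included Olfm4, Chil1 and Il1f9, which stayed measurable in both groups. Olfm4, a protein of neutrophil granules, read 5.73, 5.73 and 6.21 in spheres and 8.61, 9.01 and 8.62 outside (-2.86 ± 0.31, adjusted p = 4.40e-05). Chil1, a chitinase-like granule protein, read 4.97, 5.93 and 6.25 against 8.39, 9.27 and 8.22 (-2.91 ± 0.44). Il1f9, the inflammatory cytokine IL-36 gamma, read 5.27, 6.50 and 6.04 against 8.36, 9.38 and 8.82 (-2.91 ± 0.37). The in-sphere arrays were well above the filter level for each of the 3 genes.

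Other genes of the 20 were dimmer in spheres. Prg2, the eosinophil major basic protein, read 2.43, 4.07 and 3.46 in spheres and 6.25, 6.05 and 6.70 outside (-3.01 ± 0.45). Ear3, an eosinophil ribonuclease, was above the filter level on 1 in-sphere array and differed by -3.19 ± 0.33, while another probe set of the gene gave -1.19. Gp1bb, a subunit of the platelet receptor for von Willebrand factor, read 2.83, 3.24 and 2.62 against 5.69, 6.56 and 6.17 (-3.24 ± 0.49). Itgb3, the beta 3 integrin of platelets and osteoclasts, read 2.99, 3.31 and 3.36 against 6.11, 6.13 and 6.97 (-3.18 ± 0.32). A dimmer probe set of Itgb3 differed by only -0.13. G0s2, an inhibitor of the main triglyceride lipase, read 3.98, 5.02 and 5.04 against 7.20, 8.41 and 7.84 (-3.14 ± 0.43). The rest of the 20 included the granzyme Gzme, the protease Asprv1, and the receptors Fcrl1 and Klra17, with differences from -3.12 to -2.95.

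All 13 tested members of the list of secondary granule and mature neutrophil genes were lower in spheres, with a median of -1.85. Their abundance puts them among the brightest genes of the outside cells: S100a9, S100a8 and Ngp were 3 of the 10 brightest. S100a9 read 13.60, 13.77 and 13.69 outside and 12.82, 13.21 and 13.18 in spheres. The summed level of 6 neutrophil markers was 15.33 to 15.58 outside and 14.15 to 14.60 in spheres, and the ranges were apart (exact permutation p = 0.10, which is the lowest value possible with 3 arrays a group). Of 12 erythroid and megakaryocyte genes 8 were lower and 2 higher. The higher genes, Ppbp (1.30 ± 0.28) and Pf4 (0.54 ± 0.14), encode platelet chemokines that mouse macrophages also make. Platelet membrane genes such as Gp9 (-2.47 ± 0.28) and Itga2b (-2.24 ± 0.31) were lower. The digestion and selection described for sphere cells and the compartment itself cannot be told apart, and the part of these other cells in the remaining lower genes was not tested.

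Most genes of the hypoxia list were higher in spheres. Hypoxia-inducible factors bind a short DNA core upstream of genes for anaerobic metabolism, collagen maturation and the factor's own degradation. Of 23 tested members of the hypoxia list 19 were higher and 0 lower, with a median difference of 1.80. These counts depend on how genes were assigned: Angptl4, which hypoxia can also induce, was placed in another list and was lower. Plod2, a collagen lysyl hydroxylase, read 8.78, 8.48 and 7.88 in spheres and 5.05, 5.34 and 4.69 outside, a 10.2-fold difference. Car9, a carbonic anhydrase of the cell surface, read 8.01, 7.42 and 7.20 against 5.04, 4.68 and 4.74 (2.72 ± 0.23, adjusted p = 7.96e-06). Selenbp1, a selenium-binding protein, was highest in replicate 3, at 8.50, 8.69 and 8.99 against 6.56, 6.11 and 5.81 (2.57 ± 0.23). P4ha2, a prolyl hydroxylase of collagen, read 8.75, 7.99 and 7.89 against 5.90, 5.77 and 5.32 (2.54 ± 0.23). In each of these genes the lowest in-sphere array was well over the highest outside array.

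The hypoxia response element core, ACGTG on either strand, was searched in promoter windows from 250 bases before to 50 bases after the start site (RefSeq, GRCm38.p6). It was found in 11 of the 14 called hypoxia genes that had a window, 78.6%, against 28.4% of 10067 tested genes. Called or not, 13 of the 17 tested list members with a window held the core. Of the 4 named genes that held it, Car9, P4ha2 and Selenbp1 are given here as the bases around the core, since they had larger differences than Vegfa (0.50 ± 0.14), with the core in capitals as it reads on the gene's strand.
Car9, chr4:43506963-43507025, plus strand: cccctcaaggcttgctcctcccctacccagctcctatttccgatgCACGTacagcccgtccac
P4ha2, chr11:54100801-54100895, plus strand: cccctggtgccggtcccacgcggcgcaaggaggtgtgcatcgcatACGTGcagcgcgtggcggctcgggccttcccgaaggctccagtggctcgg
Selenbp1, chr3:94932834-94932928, plus strand: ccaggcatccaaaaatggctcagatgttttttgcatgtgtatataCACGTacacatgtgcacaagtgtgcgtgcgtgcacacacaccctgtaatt
The core begins 18 bases before the start site in Car9, 78 in P4ha2 and 204 in Selenbp1. A match of letters describes the sequence and is not evidence of binding. The list was put together by known function and with earlier results of these data known. Its excess over all genes may follow from the list itself and is no test of the arrays.

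Sugar metabolism genes were higher too. Of 15 glycolysis and glucose uptake genes 12 were higher and 1, Pfkfb4 (-0.99 ± 0.19), was lower, with a median of 0.88, while 0 of 18 oxidative phosphorylation genes were called in either direction and their median was -0.02. In the called glycolysis genes replicate 3 was the highest in-sphere array in 9 of 12, whereas replicate 1 was the highest in 14 of the 19 called hypoxia genes. The arrays therefore ranked differently in the lists.

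The in-sphere cells had more RNA for DNA replication. Entry into S phase loads the MCM helicase on DNA, and E2F factors drive the genes for it. Of 25 tested replication genes 22 were higher and 1 was lower, with a median of 1.35. The helicase subunit Mcm5 read 7.16, 7.43 and 7.40 in spheres and 5.43, 6.02 and 4.70 outside (1.95 ± 0.27, adjusted p = 2.17e-04). Mcm7 read 7.91, 8.06 and 7.95 against 6.02, 6.90 and 5.90 (1.70 ± 0.21). The DNA polymerase subunit Pole read 5.46, 5.81 and 5.69 against 3.68, 4.23 and 3.75 (1.76 ± 0.23). The in-sphere arrays lay close together in these genes, and the spread was larger outside, where replicate 2 was the highest array each time. The single lower member, Pcna (-0.35), lost its call in most other settings.

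E2F sites were searched as TTTCCCGC, TTTGGCGC, TTTGCCGC and TTTCGCGC on either strand. They were found in 10 of the 18 called replication genes with a window, 55.6%, against 4.47% of the tested genes with one. Called or not, 10 of 21 tested list members with a window held these sites. The windows of Mcm5 and Mcm7 show them in capitals, and in Mcm5 a pair of matches overlaps.
Mcm5, chr8:75109315-75109412, plus strand: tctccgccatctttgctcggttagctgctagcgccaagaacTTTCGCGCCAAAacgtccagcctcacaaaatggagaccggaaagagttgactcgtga
Mcm7, chr5:138171996-138172093, minus strand: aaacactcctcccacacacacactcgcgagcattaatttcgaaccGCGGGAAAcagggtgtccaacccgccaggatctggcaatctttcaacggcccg

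Mitosis and spindle genes followed, with 18 of 24 higher, 0 lower and a median of 1.05. Regulators of the G1 phase were split. The D cyclins, which activate the kinases that release E2F, included Ccnd1 at 10.30, 10.32 and 10.65 in spheres against 7.43, 7.64 and 8.10 outside, a 6.49-fold difference. Ccnd2 read 9.02, 8.68 and 8.84 against 6.02, 6.04 and 6.34 (2.71 ± 0.19), and its 5 further probe sets gave differences from 0.52 to 2.63. The inhibitors of those kinases were also higher, Cdkn2a as above and Cdkn2b at 8.69, 8.32 and 7.69 against 5.94, 5.56 and 5.51 (2.56 ± 0.24). Of the 16 inhibitors and D cyclins 5 were higher and 4 lower, or 2 lower without outside replicate 2. The oncogenic transcription factor Myc read 8.35, 8.80 and 8.70 against 7.83, 7.50 and 6.91 (1.20 ± 0.22, adjusted p = 0.00145). Of 19 ribosome biogenesis genes 12 were higher and 0 lower, led by Dkc1 (1.59 ± 0.14), Nop58 (1.18 ± 0.14) and Nolc1 (1.08 ± 0.14), while 2 of 14 ribosomal protein genes were called.

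Genes that supply building blocks were higher as well. The serine and one-carbon pathway makes serine from glucose and passes its carbon to nucleotide synthesis. Of its 13 tested genes 9 were higher and 0 lower, with a median of 1.06, and 9 or 10 were higher under every alternative setting. Mthfd1l, a mitochondrial folate enzyme, read 8.18, 7.98 and 7.61 in spheres and 5.72, 5.51 and 4.84 outside (2.57 ± 0.21, adjusted p = 6.19e-06). Psat1, which makes phosphoserine, read 7.81, 7.25 and 6.83 against 5.00, 5.36 and 4.92 (2.20 ± 0.21). Aldh1l2, another folate enzyme of mitochondria, read 5.66, 5.24 and 4.84 against 2.99, 3.30 and 2.73 (2.24 ± 0.32). Each of these genes was highest in replicate 1 and lowest in replicate 3 among the in-sphere arrays, without overlap with the outside arrays. The amino acid response element TGATGNAA was in 0 of the 7 called genes with a window, against 2.89% of tested genes. Called or not, 1 of 11 tested list members with a window held it.

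Of 17 aminoacyl-tRNA synthetases, which charge tRNAs, 10 were higher and 1, Nars, was lower. Differences were modest, led by Vars (1.46 ± 0.22) and Kars (1.00 ± 0.11), with a median of 0.42, and 6 were called without in-sphere replicate 1. The call of Nars (-0.62 ± 0.16) was lost without outside replicate 3. Amino acid transporters were divided, with 5 higher and 2 lower of 17. The cationic amino acid carriers Slc7a2 (1.67 ± 0.21) and Slc7a1 (1.11 ± 0.17), which import arginine, were higher, as was the large neutral carrier Slc7a5 at 6.07, 5.63 and 5.68 against 4.31, 4.23 and 3.88. Further probe sets gave 0.57 and 0.02 for Slc7a2 and 0.01 and 1.21 for Slc7a1. Slc43a2, also a neutral amino acid carrier, was lower (-1.05 ± 0.19).

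Fatty acid synthesis and lipid export went in opposite directions. Of 13 genes for fatty acid synthesis and desaturation 8 were higher and 1 lower, with a median of 0.78. The elongase Elovl6 read 6.41, 5.88 and 5.67 in spheres and 2.97, 3.10 and 3.22 outside (2.89 ± 0.21), with 2.29 and 0.36 in its other probe sets. Fatty acid synthase, Fasn, read 7.12, 7.27 and 7.05 against 5.19, 5.53 and 4.99 (1.91 ± 0.14, adjusted p = 4.41e-06). Cholesterol synthesis had 11 of 18 genes higher and 0 lower, with a median of 0.66. The sterol regulatory element TCACNCCAC was in 0 of the 8 called cholesterol genes with a window, against 1.48% of tested genes. Called or not, 1 of 15 tested cholesterol genes with a window held it.

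In contrast, 17 of 19 genes of the LXR and PPAR programme, which exports cholesterol and takes up and stores fatty acids, were lower, 0 were higher, and the median was -0.99. Pparg, the nuclear receptor of fatty acids, read 4.82, 4.97 and 5.08 in spheres and 6.44, 6.75 and 6.98 outside (-1.76 ± 0.19, adjusted p = 4.70e-05). Abcg1, a cholesterol exporter, read 8.30, 8.23 and 8.50 against 9.39, 9.52 and 9.39 (-1.09 ± 0.17). Angptl4, an inhibitor of lipoprotein lipase that both hypoxia and PPAR can induce, read 4.32, 4.45 and 4.26 against 5.79, 5.59 and 5.76 (-1.37 ± 0.21). The groups did not overlap in these genes, but their SEs were above the median of 0.163 over all tested genes. Between 15 and 17 members of the programme were lower in every alternative setting.

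Lysosome genes were lower too. TFEB and MITF factors bind a CLEAR element in the promoters of genes for lysosomal enzymes and the proton pump. Of 24 tested members 15 were lower and 0 higher, with a median of -0.60. Rragd, a small GTPase of nutrient sensing at the lysosome, read 3.52, 4.15 and 3.46 in spheres and 6.47, 6.29 and 6.59 outside (-2.74 ± 0.25), although a dimmer probe set gave -0.01. Mcoln1, a calcium channel of the lysosome, read 5.97, 6.28 and 6.16 against 7.23, 6.77 and 6.91 (-0.83 ± 0.13), and its 2 other probe sets gave -0.89 and -0.88. The factor Tfeb itself was lower, with means of 4.15 in spheres and 5.15 outside (adjusted p = 0.00596). The core TCACGTGA, which contains the hypoxia core ACGTG, was in 4 of 12 called lysosome genes with a window, 33.3%, against 2.08% of tested genes. Called or not, 4 of 20 tested list members with a window held TCACGTGA. Mcoln1 and Ctsd, the cathepsin D gene (-0.70 ± 0.10, named after its values were seen), hold it as shown in capitals.
Mcoln1, chr8:3500428-3500518, plus strand: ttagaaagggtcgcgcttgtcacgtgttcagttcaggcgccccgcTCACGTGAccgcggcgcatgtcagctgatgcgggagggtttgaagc
Ctsd, chr7:142387874-142387971, minus strand: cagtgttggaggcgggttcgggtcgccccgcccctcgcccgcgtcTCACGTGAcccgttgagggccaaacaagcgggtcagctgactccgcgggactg

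Antioxidant and iron genes shared this direction. NRF2 induces enzymes of glutathione and NADPH supply, and 15 of 19 of its targets were lower, 0 higher, with a median of -0.83. Gclm, the modifier subunit of glutathione synthesis, read 9.41, 9.67 and 9.17 in spheres and 10.88, 10.97 and 10.54 outside (-1.38 ± 0.20, adjusted p = 3.63e-04). Gsr, glutathione reductase, read 7.48, 8.06 and 7.59 against 9.04, 9.54 and 8.91 (-1.46 ± 0.23). The antioxidant response element TGACNNNGC was in 5 of 12 called members with a window, 41.7%, against 16.7% of tested genes. Called or not, 5 of 15 tested members with a window held the element. The window of Gclm shows it on the opposite strand.
Gclm, chr3:122245378-122245476, plus strand: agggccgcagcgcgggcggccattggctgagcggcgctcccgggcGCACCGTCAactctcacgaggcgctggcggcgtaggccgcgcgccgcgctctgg
Of 13 iron genes 8 were lower and 0 higher. The iron exporter Slc40a1, ferroportin, read 7.51, 7.69 and 7.56 in spheres and 10.18, 10.15 and 10.10 outside, 5.88-fold higher outside, and another probe set gave -2.62. The transferrin receptor Tfrc, which imports iron, was lower as well, at 7.79, 8.02 and 7.89 against 9.49, 9.18 and 9.22 (-1.39 ± 0.13), with -0.14 and -0.58 in its other probe sets. The remaining large differences were those of Ltf, Hp and Lcn2, iron or heme carriers that neutrophils store, and the neutrophil marker sum differed between the groups as given above.

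**Figure D4:**
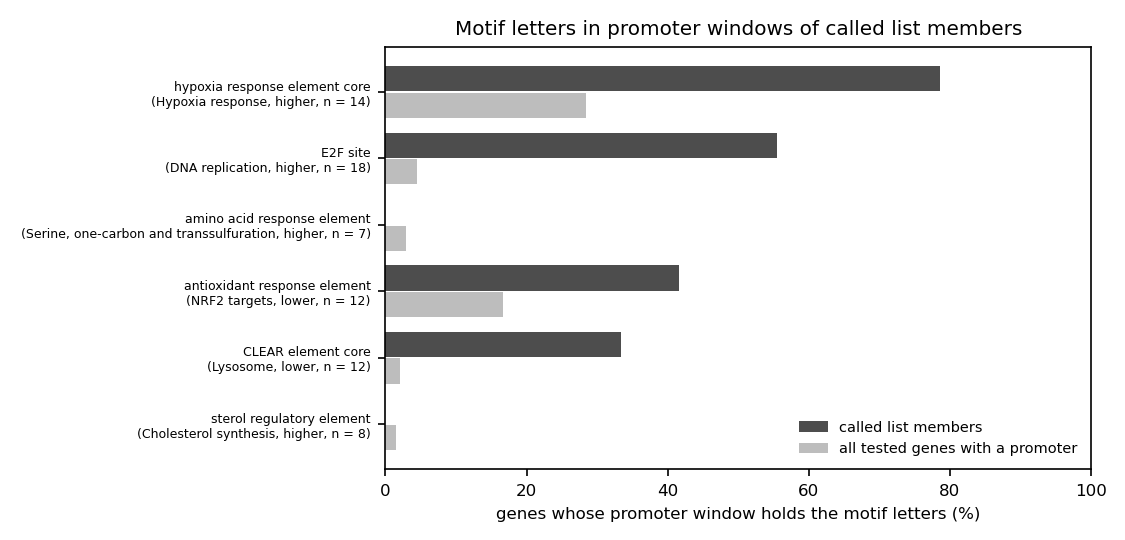
Share of genes (x axis, percent) whose promoter window holds the letters of each motif, with dark bars for called members of the named list and light bars for all 10067 tested genes with a window. The share is 78.6% against 28.4% for the hypoxia core and 55.6% against 4.47% for E2F sites, and it is 0 for 2 of the lists, where a missing match says only that these letters are not in the window. The lists were put together by known function and with earlier results of these data known, so an excess may follow from the list itself.

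Eicosanoid genes changed in both directions. Prostaglandins and leukotrienes are lipid mediators made from arachidonic acid, and 5 of 18 tested genes of the pathway were higher and 7 lower. The phospholipase Pla2g4a (1.11), the cyclooxygenase Ptgs2 (0.65) and the prostaglandin E synthase Ptges (1.24) were higher. Hpgd, which inactivates prostaglandin E2, read 3.69, 3.90 and 3.94 in spheres and 6.13, 6.15 and 5.88 outside (-2.21 ± 0.26, adjusted p = 6.87e-05). Hpgds, the prostaglandin D synthase, read 5.28, 6.42 and 5.83 against 7.75, 7.91 and 7.78 (-1.97 ± 0.22). The leukotriene arms were split. Alox5, the first enzyme of leukotriene synthesis, was lower (-1.43 ± 0.28), as was the leukotriene B4 receptor Ltb4r1 (-2.10 ± 0.33). The cysteinyl leukotriene receptor Cysltr1 was higher, at 7.74, 8.39 and 8.79 against 7.02, 6.44 and 5.83 (1.88 ± 0.28). Ltc4s, which makes leukotriene C4, was higher by 1.19. The calls of Ptges and Ltc4s were marginal: leaving out in-sphere replicate 1, outside replicate 2 or outside replicate 3 ended both and left 3 higher members. Without the filter, 3 members of the pathway were likewise called higher.

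Chemokines are secreted proteins that attract leukocytes, and those that were called in the main fit were higher in spheres. Of 14 CC chemokines 6 were higher and 0 lower, with a median of 0.21, and of 11 CXC chemokines 5 were higher and 0 lower. The CXC counts were 6 and 1 with the replicate block, and 4 and 1 without in-sphere replicate 3. They were 5 and 1 with an intensity trend, centred arrays or the mean of all probe sets, and without outside replicate 1. Ccl2 read 12.04, 11.95 and 12.05 in spheres and 10.70, 10.22 and 10.74 outside, a 2.74-fold difference between bright values. Ccl12 was less even, at 9.70, 9.62 and 10.43 against 6.82, 4.10 and 6.32. Cxcl12, a stromal chemokine that Ackr3 binds, read 9.32, 8.99 and 8.51 against 5.29, 6.04 and 6.30 (3.06 ± 0.41, adjusted p = 1.80e-04), although its 2 other probe sets gave -0.03 and 0.03. The receptors moved as well. Ccr2, the receptor of Ccl2, read 8.12, 9.02 and 9.19 against 6.77, 7.21 and 7.62 (1.57 ± 0.46, adjusted p = 0.0220), a call kept in 11 of 15 alternative settings and lost without in-sphere replicate 2 or 3 or outside replicate 1 or 2, with adjusted p-values from 0.00289 to 0.0816. Cx3cr1, the fractalkine receptor of monocytes and microglia, read 7.96, 8.66 and 8.61 against 5.93, 6.24 and 5.56 (2.50 ± 0.21). Cxcr2, a neutrophil receptor, was lower (-1.85 ± 0.28).

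Cytokines divided by kind. Of 19 tested genes 8 were higher and 2 lower, and Il1b, Il6 and Tnf were not among them. Il33, an alarmin of the interleukin-1 family, led the higher genes at 8.23, 7.41 and 7.03 in spheres, and 1 outside array was above the filter level (4.87 ± 0.36). Il1b read 11.32, 11.92 and 11.84 in spheres and 11.43, 11.62 and 11.85 outside, overlapping throughout. Csf2, which encodes GM-CSF, read 5.21, 4.49 and 4.50 in spheres, and 1 outside array was above the filter level (1.92 ± 0.28). The interferon gene Ifnb1 read 3.79, 4.72 and 5.07 against 2.97, 3.12 and 3.04 (1.48 ± 0.28, adjusted p = 0.00195), while 0 of 19 interferon-stimulated genes were called in limma. Without outside replicate 3, 3 of the 19 were called higher, and 1 was with the replicate block. Tnfsf13b, the B cell survival factor BAFF, was lower at 4.57, 4.68 and 4.59 against 6.57, 7.11 and 6.66 (-2.17 ± 0.30). Il10, an anti-inflammatory cytokine, was lower (-0.72 ± 0.24, adjusted p = 0.0402), a call kept in 9 of 15 settings, with adjusted p-values from 0.00419 to 0.164. Of 16 checkpoint ligands and costimulators 5 were higher and 2 lower, and all 5 higher genes were highest in replicate 3. Havcr2, the inhibitory receptor TIM-3, read 7.10, 7.25 and 7.46 in spheres and 5.07, 5.31 and 4.44 outside (2.33 ± 0.22, adjusted p = 1.35e-05). Tnfsf9, the ligand of the costimulator 4-1BB, read 9.10, 9.17 and 9.57 against 8.00, 6.62 and 7.41 (1.94 ± 0.30). Cd274, which encodes PD-L1, was not called (-0.06 ± 0.16).

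Growth factors changed in both directions. Of 19 tested growth factor genes 7 were higher and 3 lower. Next to Ereg, another EGF receptor ligand was higher, Hbegf at 7.67, 7.32 and 7.84 in spheres and 5.72, 5.71 and 5.54 outside (1.96 ± 0.19). Bdnf, the brain-derived neurotrophic factor, read 6.14, 5.66 and 4.65 against 3.38, 2.19 and 2.41, with 1 outside array above the filter level (2.82 ± 0.35). In the Wnt pathway, 5 of 16 were higher and 2 lower, and the secreted antagonists Dkk2 and Sfrp2 led. Sfrp2 read 6.87, 5.95 and 5.21 against 2.88, 2.92 and 2.56 (3.22 ± 0.32). In the Notch pathway 4 of 15 were higher and 1 lower, which is 33.3% called, near the 29.4% of all tested genes. The receptor Notch4 read 4.35, 4.84 and 5.19 in spheres and was under the filter level outside, with a bound of 2.02, the ligand Jag1 read 6.03, 6.75 and 6.37 against 4.87, 4.29 and 3.70 (2.10 ± 0.29), and the shared transcription factor Rbpj was higher (1.70 ± 0.15). In the TGF-beta, activin and BMP pathway 11 of 30 were higher and 7 lower. Tgfb3 read 5.62, 6.18 and 6.30 against 4.05, 4.26 and 3.98 (1.94 ± 0.25). Bmp2 (-1.93 ± 0.32) was lower, with the BMP target genes Id1, at 6.63, 7.42 and 6.71 against 9.03, 9.33 and 9.19, and Id3 (-2.15 ± 0.21).

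Lipid-associated and alternative activation markers differed in direction. Of 16 genes of the Trem2 and lipid-associated macrophage state, which takes up lipid debris, 9 were lower and 0 higher, with a median of -0.37. Gpnmb, a glycoprotein of that state, read 10.81, 10.83 and 11.00 in spheres and 12.40, 11.73 and 12.14 outside (-1.21 ± 0.17). Clec7a, which encodes the fungal glucan receptor dectin-1, read 8.16, 8.40 and 8.17 against 10.26, 10.36 and 10.52 (-2.14 ± 0.12, adjusted p = 1.01e-06), one of the tightest differences of the comparison. Markers of alternative activation by interleukin-4 were split, with 6 of 17 higher and 5 lower. The mannose receptor Mrc1 read 8.98, 9.01 and 9.32 against 8.45, 7.29 and 8.33 (1.08 ± 0.28), together with Arg1 on the higher side. The chitinase-like gene Chil4 read 10.25, 11.51 and 10.90 against 12.34, 12.87 and 12.44 (-1.66 ± 0.34).

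Genes that tell monocytes from resident macrophages were also divided. Of 17 blood monocyte genes 7 were higher and 6 lower. The higher count was 4 without in-sphere replicate 2, outside replicate 1 or outside replicate 2. F13a1, a clotting factor subunit of monocytes, read 11.44, 11.30 and 11.47 in spheres and 9.77, 9.36 and 8.99 outside (2.03 ± 0.21). Fibronectin, Fn1, read 11.54, 11.55 and 11.25 against 9.62, 9.61 and 9.48 (1.88 ± 0.17). Among 18 general macrophage markers, 6 were lower and 1 higher. The myeloid transcription factor Cebpa read 6.28, 6.12 and 6.30 against 7.75, 8.01 and 7.36 (-1.47 ± 0.19), and the engulfment receptor Mertk read 7.55, 7.65 and 8.02 against 8.80, 8.40 and 8.75 (-0.91 ± 0.15). The lower count was 4 without in-sphere replicate 1 and 11 without in-sphere replicate 3. In antigen presentation 2 of 16 MHC class II genes were higher and 2 lower, which is 25.0% called against 29.4% of all tested genes. The alpha chain H2-Aa read 7.30, 7.56 and 7.14 against 8.40, 8.63 and 9.14 (-1.39 ± 0.23), whereas H2-DMa, which loads peptides, was higher (1.12 ± 0.24).

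Of 10 bone matrix and osteoblast genes 5 were lower and 1 higher, and of 12 osteoclast genes likewise 5 and 1. The lower counts were 3 for bone with the stricter filter and 3 for osteoclasts with the mean of all probe sets. Ibsp, bone sialoprotein, read 6.00, 7.24 and 6.16 outside and was under the filter level on all in-sphere arrays, a bound of 3.69. The cadherin Cdh11, of osteoblasts and other stromal cells, read 2.67, 3.42 and 2.87 against 6.08, 6.35 and 6.60 (-3.36 ± 0.28), with -0.85 in another probe set. Atp6v0d2, a proton pump subunit of osteoclasts, read 6.16, 5.48 and 5.72 against 9.04, 7.86 and 9.01 (-2.85 ± 0.34). The osteoclast regulator Nfatc1 read 5.70, 6.06 and 6.23 against 7.15, 6.89 and 7.19 (-1.08 ± 0.20), a call lost with the mean of all its probe sets.

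Feedback genes of growth factor signalling changed in both directions. Of 20 genes 7 were higher and 6 lower. The ETS factor Etv5, which ERK kinases induce, read 7.48, 7.85 and 7.88 in spheres and 5.75, 5.63 and 5.53 outside (2.10 ± 0.15, adjusted p = 3.66e-06). The inhibitors Spry2, at 8.14, 7.89 and 8.04 against 6.33, 6.42 and 6.68 (1.55 ± 0.14), and Spred2 (1.64 ± 0.17) were higher too. The immediate-early phosphatase gene Dusp2 read 6.05, 7.33 and 7.11 against 8.82, 8.74 and 9.27 (-2.11 ± 0.32). Socs3, the feedback inhibitor of STAT3 signalling, read 9.06, 8.76 and 9.05 against 7.59, 7.19 and 7.08 (1.67 ± 0.15). Of 14 targets of the tumour suppressor p53, 6 were lower and 0 higher. Trp53inp1, a p53-induced nuclear protein, read 5.89, 6.55 and 6.76 against 8.58, 9.09 and 8.91 (-2.46 ± 0.23), and the survival gene Bcl2 read 5.34, 5.85 and 5.92 against 4.18, 3.79 and 4.19 (1.65 ± 0.19).

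Matrix genes were higher in most members. Collagens, laminins and fibrillins form the scaffold between cells, and fibroblasts are their main source in most tissues. Of 22 matrix glycoprotein and proteoglycan genes 13 were higher and 1 lower, with a median of 1.22, and of 18 collagens 11 were higher and 1 lower, with a median of 1.08. The basement membrane collagen Col4a1 read 9.08, 8.23 and 8.02 in spheres and 5.28, 5.86 and 5.22 outside, a 7.95-fold difference (adjusted p = 6.19e-06). Lamb1, a laminin chain of the same membranes, read 8.45, 8.32 and 7.74 against 5.33, 5.22 and 5.93 (2.68 ± 0.25). The proteoglycan decorin, Dcn, read 9.89, 8.82 and 8.28 against 5.66, 6.06 and 7.47 (2.60 ± 0.55), so its closest arrays, both of replicate 3, were less than 1 apart. Col3a1, a fibrillar collagen, read 11.18, 10.80 and 10.35 against 7.63, 8.41 and 8.37. The most typical fibroblast collagens were dim: Col1a1 read 4.44, 4.18 and 4.34 against 4.56, 5.50 and 4.71, and Col1a2 was above the filter level on 2 in-sphere arrays and no outside array. Col1a1 (-0.60 ± 0.21, adjusted p = 0.0452) was called lower, a call kept in 8 of 15 settings, with adjusted p-values from 0.0165 to 0.145.

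The order of the arrays was the same through much of this group. Replicate 1 was the highest in-sphere array in 10 of the 11 collagens called higher and in 11 of the 13 matrix glycoproteins. It was also highest in 9 of the 10 fibroblast and stromal markers called higher, all 5 such Hox genes and all 3 such neural markers. Over all genes called higher it was the highest in 59.6%. Over all genes called lower it was the lowest in 63.0%, so its extreme place was not confined to this group. The marker sum for 7 fibroblast genes ran from 10.74 to 11.74 in spheres and from 8.28 to 9.15 outside (exact permutation p = 0.10), and 4 of the 7 were higher and 1 was lower. The sum for 7 neuroblastoma markers ran from 7.60 to 8.45 in spheres and from 6.37 to 6.54 outside (exact permutation p = 0.10), with Gap43 and Ncam1 (0.99 ± 0.20) called higher. The wider list of 19 neuroblastoma and sympathetic neuron genes had 3 higher and 0 lower, and Dlk1 was its largest. Those 3 are 15.8% of the list, and 15.8% of all tested genes were called higher. Dlk1, a membrane protein of the Notch ligand family found in neuroendocrine and stromal precursors, read 8.79, 8.17 and 7.64 in spheres and 3.85, 3.69 and 3.91 outside (4.38 ± 0.23, adjusted p = 8.43e-07). Mycn, the oncogene of many neuroblastomas, was close to the filter level in both groups and read 2.85, 3.33 and 3.29 in spheres and 3.20, 3.31 and 3.23 outside. Th, the first enzyme of catecholamine synthesis, read 3.07, 2.78 and 3.23 against 3.05, 3.01 and 3.15. The part of tumour cells or fibroblasts in these differences was not tested. Without in-sphere replicate 1, 10 collagens were called higher and 0 lower.

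Matrix proteases and their inhibitors were more often higher than lower. Of 24 proteases and inhibitors 12 were higher and 3 lower, with a median of 0.76. The urokinase gene Plau read 7.63, 7.66 and 7.69 in spheres and 5.64, 5.10 and 5.67 outside (2.19 ± 0.19). Mmp10, a stromelysin, read 5.95, 6.73 and 7.23 against 4.43, 4.28 and 4.42 (2.26 ± 0.27), so that replicate 1 was the lowest in-sphere array here. The urokinase inhibitor Serpinb2 read 7.76, 7.85 and 7.49 against 6.38, 3.73 and 4.51 (2.83 ± 0.63). Mmp9, a gelatinase of neutrophils and osteoclasts, was lower at 8.41, 8.27 and 8.73 against 9.79, 10.54 and 9.90 (-1.61 ± 0.25).

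Most genes of the mechanical stress list were higher. YAP and TAZ enter the nucleus when cells spread or stiffen and induce Ankrd1 and Ccn1 with the TEAD factors. Of 14 tested genes of this list 9 were higher and 2 lower, with a median of 0.86, or 7 and 0 without in-sphere replicate 1. Ankrd1 read 6.45, 7.02 and 6.30 in spheres and 2.69, 3.49 and 2.85 outside, and another probe set gave 3.56. Ccn1 read 9.39, 8.77 and 8.43 against 5.90, 6.48 and 6.56 (2.55 ± 0.31), and the coagulation starter F3, tissue factor, 7.78, 7.82 and 7.04 against 4.21, 4.31 and 4.54 (3.19 ± 0.28). The factors Wwtr1, which encodes TAZ (2.48 ± 0.25), and Yap1 (2.13 ± 0.23) were higher, with 0.22 for a second probe set of Yap1. Ccn2, a further target, was lower at 5.28, 6.20 and 5.62 against 6.62, 6.97 and 7.27 (-1.25 ± 0.33, adjusted p = 0.0130), a call lost with array weights and without in-sphere replicate 1 or outside replicate 3. Hox genes, which mark position in the embryo, had 5 of 16 higher and 0 lower, led by Hoxc10 (1.52 ± 0.30) and Hoxa10, whose outside arrays were all under the filter level (bound 0.90). The list had 3 called members without in-sphere replicate 1 and 8 without in-sphere replicate 3. Its 5 calls are 31.25% of the tested members, against 29.4% of all tested genes called and 15.8% called higher.

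**Figure D5:**
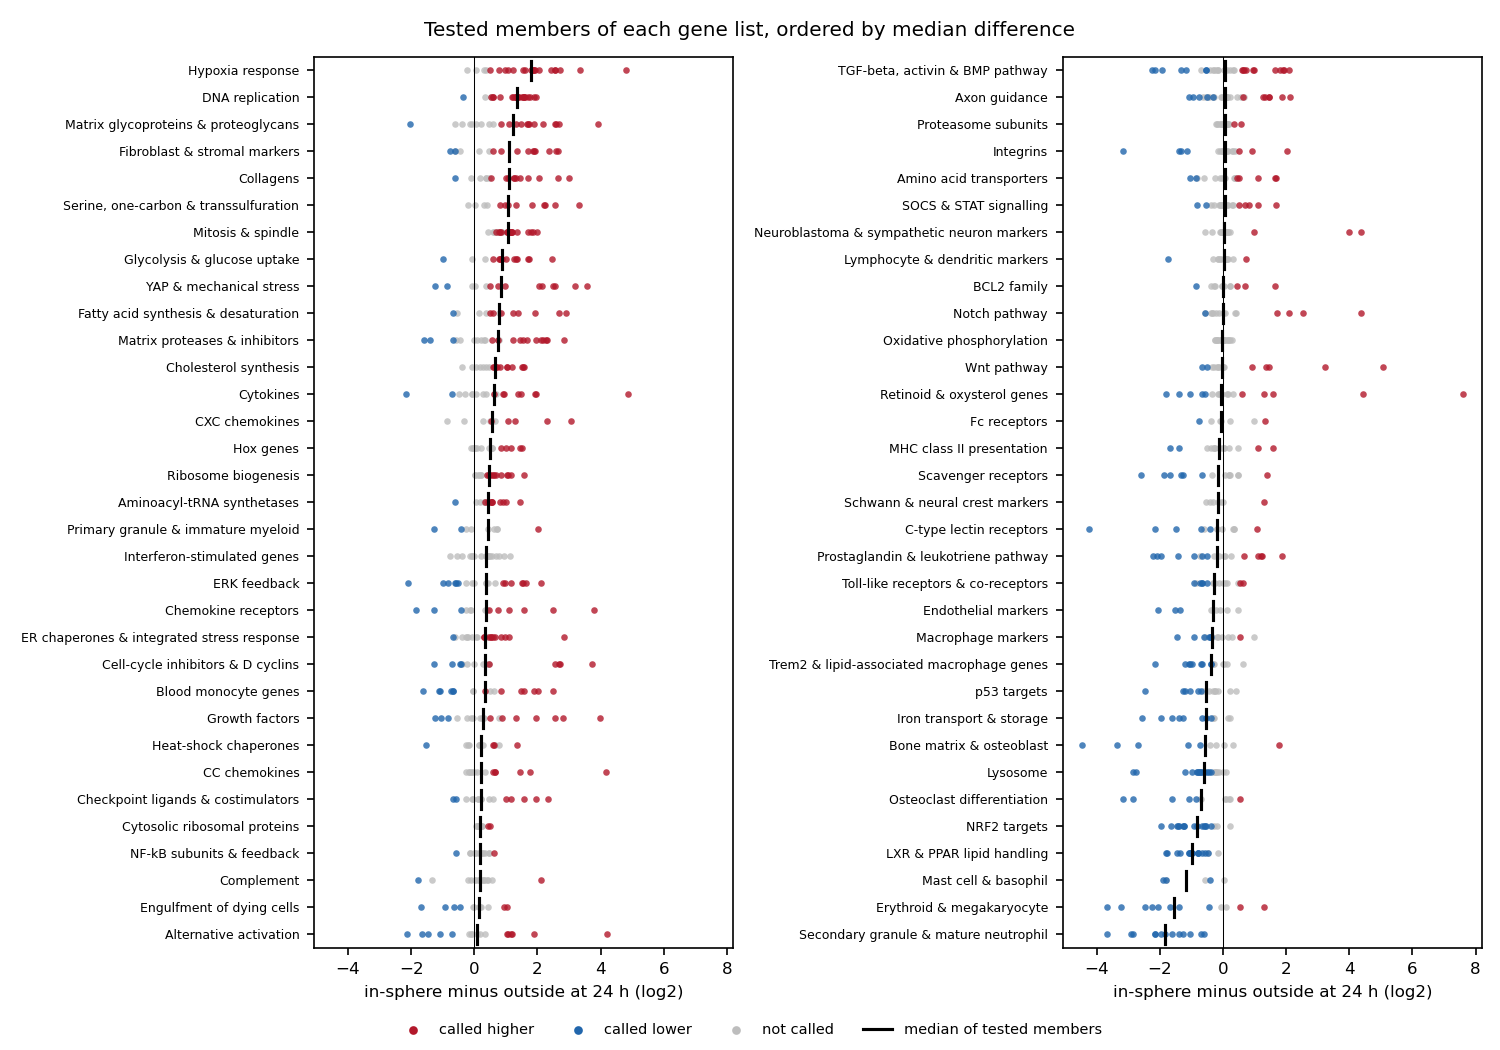
In-sphere minus outside difference at 24 h (x axis, log2) of every tested member of 66 gene lists (the 67 without the sex-linked genes), ordered by the median (black bar), with called higher members in red, called lower in blue and uncalled in grey. Hypoxia response has the highest median, 1.80, and secondary granule and mature neutrophil genes the lowest, -1.85.

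The 24 h comparison was set beside that at 48 h, where 37.5% of the same genes were called. The shared protocol text describes 24 h of co-culture for all samples, so the time of 48 h rests on the sample labels. Of the genes higher at 24 h, 1400 were also called higher at 48 h, which is 70.9% of the 24 h list and 73.5% of the 48 h list. Of those lower at 24 h, 1398 were called lower at 48 h, 82.5% and 50.3% of the lists. Another 3 of them were called higher at 48 h, while 0 genes higher at 24 h were called lower at 48 h. The change of the difference between the times was called for 0.0% of genes, that is 0 genes in limma, with 1534 at an unadjusted p under 0.05 and a lowest adjusted p of 0.0657. With the replicate block 65 genes were called. Although 868 genes were called at 24 h and not at 48 h, a difference in calls alone does not show a change. Differences at both times, with the change and its error, were 3.99 and 3.00 for Ereg (-0.99 ± 0.34), 2.24 and 0.32 for Aldh1l2 (-1.92 ± 0.46), 3.58 and 5.27 for Ankrd1 (1.69 ± 0.38), and -2.56 and -3.78 for Slc40a1 (-1.22 ± 0.29). None of these 4 changes passed the adjusted threshold.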

How the data were processed

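Expression was measured on 12 Affymetrix mouse arrays, of which the 6 of 24 h are described. The authors deposited log2 values made with RMA in Affymetrix Expression Console 1.1, a program and method listed in the submitters' processing notes. RMA scales arrays to each other, which hides differences in total RNA and compresses dim signals. The platform annotation gave 28898 of 45141 probe sets a single symbol. Each gene was represented by its brightest probe set on average, and it was tested if above 2.77, the 40th percentile of values, on at least 3 arrays. limma 3.58.1 (R 4.3.3) fitted group means to all 12 arrays, with Benjamini-Hochberg adjustment, and was tested on simulated data. Precision is limited by 3 arrays a group.

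Members of the 67 gene lists (1237 genes, 999 tested) and the lists themselves were chosen with earlier results of these data known. Named genes are the 20 largest non-overlapping called differences in each direction, up to 5 called members per list, the 10 brightest outside genes and a fixed set. Ccn2, Col1a1, Col1a2, Ctsd, Ltc4s, Pcna, Pfkfb4, Pla2g4a, Ptges and Ptgs2 were named after their values were seen. Lists are described by counts and medians. Promoter sequences are RefSeq's (GRCm38.p6). Replicate numbers were taken to pair arrays, because the design text describes inside and outside cells of the same cultures. The main fit did not use this pairing, which entered only the alternative with the replicate block. Deviations of same-numbered arrays correlated at 0.0215, 0.120 and 0.0813 over genes at 24 h. Alternatives covered the block, the filter, array weights, the variance prior, scaling, the probe set rule and each array left out.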

Additional observations from a re-analysis of the deposited data

How the results depend on the processing

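The counts of genes called at 24 h stayed within 1.5 times under all 15 alternatives, from 1612 to 2553 higher and from 1297 to 2326 lower, and 2255 of the 3669 calls were kept in every one that gave the gene a value. With the replicate block 2069 genes were higher and 1766 lower, 119 calls were lost and 285 added. Among named genes it ended the calls of Psma5 (adjusted p = 0.0513) and Pcna (adjusted p = 0.0550) and made those of Isg20 (adjusted p = 0.0221) and Kdm5d, and it changed no other call of theirs. The change between times called 0 genes, but 65 with the replicate block, 130 with array weights, 7 with an intensity trend, 70 with centred arrays, 1 with the mean of all probe sets, and 0 to 2 when an array was left out; the 6 arrays of 24 h cannot give it. The cause was not tested. Centring each array on its median moved the median of all genes to -0.066 and the share of calls that were higher from 53.8% to 45.9%.

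Of 320 named genes over these settings, 4615 values kept direction and call, 124 lost the call, 24 gained it and 23 reversed, the last in uncalled genes. Actb was 0.0011 with the mean of probe sets. Array weights turned Tmsb4x (0.041), Il6 (0.18), Stat3 (0.052) and Mycn (0.055). With single arrays left out, the differences ran from -0.066 to 0.066 for Tmsb4x, -0.47 to 0.14 for Tgfb1, -0.19 to 0.15 for Stat3, -0.40 to 0.034 for Csf1r, -0.20 to 0.039 for Cd274, -0.18 to 0.063 for Mycn, -0.055 to 0.24 for Il1b, -0.056 to 0.37 for Itgam, -0.15 to 0.076 for Th, -0.20 to 0.095 for Il6, -0.0026 to 0.17 for Nos2 and -1.58 to 2.19 for Xist. Another tested probe set existed for 1719 called genes, was called the same way in 914 and the opposite way in 11. Signals near the filter level limit what the arrays can show.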

Other observations

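Further genes with large differences belonged to none of the lists and were chosen after their values were seen. Ass1, which makes the arginine precursor argininosuccinate, read 6.67, 6.50 and 6.40 in spheres and 4.63, 3.09 and 3.65 outside (2.73 ± 0.34), next to the arginine-degrading Arg1. The gap junction gene Gja1 read 10.80, 10.52 and 10.49 against 7.96, 8.27 and 8.48 (2.37 ± 0.21). Tmem119, known as a microglia marker and also expressed in bone and stromal cells, read 7.27, 6.72 and 7.29 against 4.97, 5.11 and 3.98 (2.41 ± 0.27). Nr2f1, an orphan nuclear receptor of neural and mesenchymal development, read 5.99, 5.68 and 4.88 in spheres and was under the filter level on all outside arrays.

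Among lower genes, Epas1, which encodes the hypoxia-inducible factor HIF-2 alpha, read 2.92, 2.59 and 2.49 in spheres and 4.28, 4.77 and 4.62 outside (-1.89 ± 0.22, adjusted p = 5.98e-05), although most hypoxia response genes were higher. Spic, a transcription factor of iron-recycling macrophages that induces ferroportin, read 3.87, 4.74 and 4.11 against 6.37, 7.18 and 6.86 (-2.56 ± 0.32), in the same direction as Slc40a1. The nuclear long RNA Neat1 read 8.83, 9.50 and 9.56 against 11.25, 11.39 and 11.36 (-2.04 ± 0.18).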
